A study of Mus musculus with 10 samples.

Results

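Interferon-stimulated genes, the antiviral genes that a cell transcribes when interferon reaches it, were followed in keratinocytes isolated from mouse back skin epidermis. They were chosen by name as a list of 39 genes, and all 39 were found among the 17983 genes listed in any library of the series. Of these, 38 were listed in all 10 libraries and passed the filter on low values, in a table of 15958 genes tested. Ifit3b was not tested because only the 4 water libraries listed it. The list held 4 sensors of nucleic acid, 30 effectors and 5 regulators.

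Type I and type III interferons bind receptors whose Janus kinases phosphorylate STAT proteins, among them STAT2. STAT2 and IRF9 are parts of the complex ISGF3, which binds the interferon-stimulated response element (ISRE) in the promoters of the responding genes. Some products act back on the pathway: RIG-I-like sensors and IRF7 raise interferon production, whereas USP18 damps the receptor. Keratinocytes answer interferon from immune cells and also make an interferon of their own, interferon kappa.

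Gene expression was measured by RNA sequencing in 3 libraries of knockout mice rubbed with olive oil/acetone, 3 of control mice rubbed with olive oil/acetone, 2 of knockout mice rubbed with water and 2 of control mice rubbed with water. The knockout genotype was labelled Gsdma1KO/KO;Gsdma3fx/fx;K14-Cre, that is, a Gsdma1 knockout on both alleles and a floxed Gsdma3 with Cre driven by the keratin 14 promoter. That promoter is active in basal cells of the epidermis and hair follicle, so immune cells of the same epidermis are not its target. Both genes encode gasdermins, pore-forming proteins of skin epithelium. Controls were labelled wild type, with no Cre named. Back skin was rubbed 2 times a day for 3 days with acetone and olive oil mixed 4 to 1, or with water, and libraries were collected on day 5. The labels give no ages and do not state whether 1 library stands for 1 animal, so each p-value reflects library-to-library spread, part of which may be technical.

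Libraries held 15914663 to 21812292 reads. Gsdma3 had 0, 0.898 and 0 normalised counts in knockout olive oil/acetone libraries 1 to 3, against 68.7, 63.1 and 177 in the controls, and 2.65 and 0 in knockout water libraries 1 and 2, against 62.5 and 283 in the controls. The gene labelled Gsdma1, named Gsdma in the annotation, was not absent from the knockout libraries (170.2 to 843, against 199.9 to 732 in controls). All 8 keratinocyte markers, among them Krt5 and Krt14, were listed in every library, with summed levels of 706171 to 1142080. The Y-linked genes Ddx3y, Eif2s3y, Uty and Kdm5d had a summed level of 3583 to 4967 in the 6 libraries of mice given the mixture, and of 0 in all 4 water libraries. Wherever the mixture is set against water, treatment and this difference between the animals cannot be told apart. In these bulk libraries, fewer cells of a type and less RNA per cell cannot be told apart either.

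The promoters of several members carried the core of the ISRE, and they are shown because ISGF3 binds this element. Whether the matches have a part in the levels of the members was not tested. RefSeq promoter windows (GRCm38.p6; 300 bases around each start) were found for 28 of the 39 members. The core searched was GAAANNGAAA on both strands, with overlapping matches counted. It occurred in 14 of the 28 genes (50%), against 1079 of 27025 genes with a window in the whole table (3.99%). A second motif, the gamma-activated site TTCNNNGAA, occurred in 6 of 28 members (21.4%) and in 9.55% of all genes. A match is a run of letters and not a shown binding site. The plot of match positions gives all 14 genes, and 7 are printed here 5′ to 3′ on the strand of the gene, with the matches in capitals; TTTCNNTTTC is the core read on the other strand.
Ddx58 (sensor, chr4:40239796-40239848, minus strand): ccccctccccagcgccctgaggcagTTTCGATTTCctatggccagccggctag
Stat2 (regulator, chr10:128270251-128270310, plus strand): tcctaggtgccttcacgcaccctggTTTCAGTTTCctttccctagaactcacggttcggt
Oas1a (effector, chr5:120907505-120907570, minus strand): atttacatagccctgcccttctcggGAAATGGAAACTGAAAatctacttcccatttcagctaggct
Isg15 (effector, chr4:156200850-156200921, minus strand): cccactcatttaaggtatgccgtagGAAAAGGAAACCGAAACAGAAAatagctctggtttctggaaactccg
Ifit1 (effector, chr19:34640760-34640838, plus strand): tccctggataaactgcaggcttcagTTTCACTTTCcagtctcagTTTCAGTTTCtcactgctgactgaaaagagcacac
Rsad2 (effector, chr12:26456538-26456597, minus strand): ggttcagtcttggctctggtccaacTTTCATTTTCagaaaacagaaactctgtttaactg
Ifit3 (effector, chr19:34583348-34583441, plus strand): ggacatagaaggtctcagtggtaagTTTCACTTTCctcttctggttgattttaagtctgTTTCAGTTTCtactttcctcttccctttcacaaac
In Isg15, 3 matches overlapped in 1 run, and in Oas1a 2 matches overlapped. The first match lay 20 bases before the start in Oas1a, 78 in Isg15, 104 in Ifit1, 120 in Rsad2, 156 in Ifit3 and 222 in Stat2 (distance from its first base). In Ddx58 it lay just after the start. Ifit3b holds the same 94 shown bases as Ifit3, identical at 94 of 94 positions. The genes are neighbouring relatives on chromosome 19, and how the counting divided reads between them is not known, so values of both are uncertain. Irf7 and Irf9 had windows in which these letters did not occur. Of the 8 members with a window that rose in knockout mice under olive oil/acetone, 3 held a match, namely Oas1a, Ddx58 and Stat2, against 10 of the other 19 tested members with a window.

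**Figure D1:**
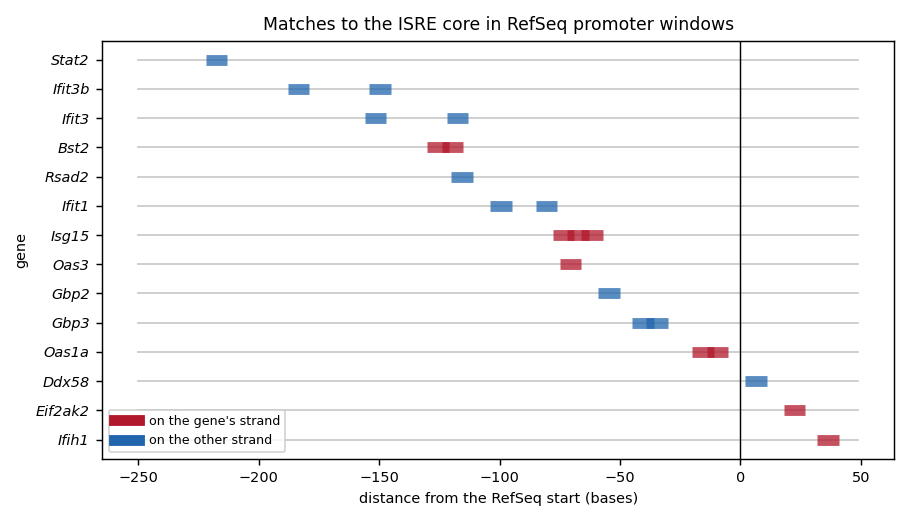
Positions of matches to the ISRE core in the RefSeq windows of the 14 members that hold one. The horizontal axis is the distance in bases from the RefSeq start and each row is a gene; red marks a match on the gene's own strand and blue one on the other strand. In 11 of the 14 genes every match lies before the start, and in Ddx58, Eif2ak2 and Ifih1 it lies after it.

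Expression levels differed widely among the members. Per kilobase of exon, the mean over libraries was 1006 normalised counts for Ifi27, a mitochondrial protein of interferon-treated cells, 976 for its relative Ifi27l2a, 482 for Bst2 (tetherin, which holds budding virions at the membrane) and 449 for Isg15, a ubiquitin-like modifier. At the low end were Cmpk2, a mitochondrial nucleotide kinase, with 8.80 and Ifi44 with 2.26. Of the 38 members, 27 had their highest value in a knockout olive oil/acetone library, all in replicate 1 or 2. Another 8 were highest in control water replicate 2, 2 in knockout water replicate 2 (Isg20 and Usp18) and 1 in control olive oil/acetone replicate 1 (Trim25).

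Members moved together from library to library, also within a group. The median member level, as log2(normalised count + 1) minus the mean of the gene over 10 libraries, was 0.72, 0.95 and 0.19 in knockout olive oil/acetone replicates 1 to 3 and -0.03, 0.13 and -0.81 in the controls under the same treatment. It was -0.44 and -0.72 in knockout water replicates 1 and 2, and -0.36 and 0.45 in control water replicates 1 and 2. One library in each group stood lowest in most members: knockout olive oil/acetone replicate 3 in 37 of 38, control olive oil/acetone replicate 3 in 35, knockout water replicate 2 in 28 and control water replicate 1 in 36. The same measure over all genes stayed between 0.01 and 0.02 in every library. The scaling by median ratios holds it near 0 beforehand, so it does not show whether other genes shifted.

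**Figure D2:**
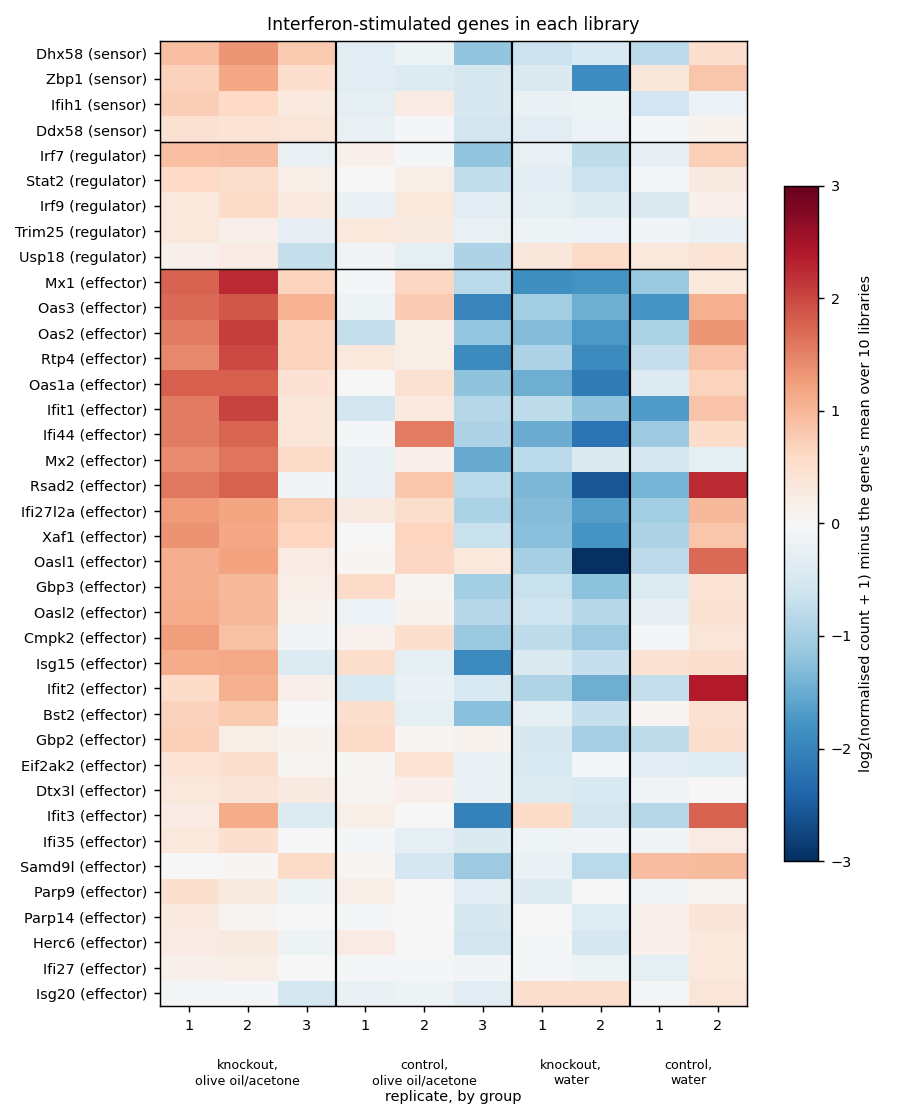
Level of the 38 tested members (rows, by role) in each library (columns, by group and replicate), as log2(normalised count + 1) minus the mean of the gene over 10 libraries; red is above that mean and blue below. Knockout olive oil/acetone replicates 1 and 2 are red in most rows, and control water replicates 1 and 2 differ from each other.

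The 2 water libraries of each genotype, which serve as the baseline for the treatment, were unlike each other in these genes. In control mice replicate 2 was higher than replicate 1 in 36 of 38 members, at a median ratio of 1.51, at least 2-fold higher in 15 and at least 5-fold higher in 7. Such ratios were not counted over all genes, and these 2 control libraries also differed in hair shaft and inner root sheath genes (summed level 322 and 11382). Rsad2 (viperin, which makes a chain-terminating nucleotide) had 23.1 in replicate 1 and 299 in replicate 2, and Ifit2, an RNA-binding tetratricopeptide protein, had 19.2 and 171; both were chosen after their values were seen. Samd9l, an inhibitor of translation, was among the members that barely differed between these libraries (359 and 365), as was Isg15 (393 and 409). In knockout mice replicate 2 was higher in 10 of 38 members, at a median ratio of 0.783, and at or under 0.5 of replicate 1 in 6. Oasl1, an oligoadenylate synthetase-like protein, had 11.5 and 1.22 there, the second value resting on 1 read. Ifit3b, listed only under water, had 1.76 and 0 in knockout replicates and 1.92 and 10.3 in control replicates. Olive oil/acetone libraries listed fewer genes than water libraries, so its absence from them is not a shown lack of expression.

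In knockout mice, 15 of the 38 members were higher and 0 lower under olive oil/acetone than under water (limma, Benjamini-Hochberg adjusted p under 0.05 over all genes tested). The 15 were 3 of 4 sensors, 1 of 5 regulators and 11 of 29 effectors. Over all genes tested, 6.74% were called higher and 13.4% in either direction. The median difference of the members was 1.12 on the log2 scale, against 0.01 for all genes, and 36 of 38 were positive. Without adjustment 26 members had p under 0.05 in the higher direction (17.2% of all genes) and 1 in the lower. The libraries of the 2 groups did not overlap, knockout olive oil/acetone above, in 31 members (28.8% of all genes).

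Ddx58 (RIG-I, which binds viral RNA ends) had 459, 445 and 428 normalised counts in knockout olive oil/acetone libraries, against 266 and 293 in knockout water libraries. The groups did not overlap, and the log2 difference was 0.67 ± 0.19 (SE; limma adjusted p = 0.044). Dhx58 (LGP2, a helper of the RNA sensors) had 111, 148 and 102, against 37.0 and 42.6 in knockout water libraries, a log2 difference of 1.56 ± 0.44 (limma adjusted p = 0.0428). Zbp1, a sensor of left-handed nucleic acid that can start necroptosis, had 83.8, 116 and 72.7, against 37.9 and 13.4, so the knockout water replicates were far apart from each other while all 3 treated libraries lay above both. Its log2 difference was 1.93 ± 0.42 (limma adjusted p = 0.0227). Ifih1 (MDA5, a sensor of long double-stranded RNA) had 668, 604 and 489, against 348 and 360.1. Its groups did not overlap either, but its adjusted p was 0.0686.

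Among the regulators, Stat2 passed the test. It had 1465, 1396 and 1096 in knockout olive oil/acetone libraries, against 757 and 614 in knockout water libraries (log2 difference 0.94 ± 0.26, limma adjusted p = 0.0427). Irf9, its DNA-binding partner, had 979.9, 1167 and 970.0, against 654 and 599 (0.72 ± 0.23, limma adjusted p = 0.0582). Irf7, which amplifies interferon production, had 442, 451 and 201.0, against 201.1 and 139.9; replicate 3 lay at the level of the higher water library, and its adjusted p was 0.153. Usp18, like the effector Isg20, had a negative difference, with 277, 296 and 153 in knockout olive oil/acetone libraries, all below the 321 and 372 in knockout water libraries (log2 difference -0.57 ± 0.32, limma adjusted p = 0.224). Trim25, a ubiquitin ligase that activates RIG-I, overlapped between the groups (1510, 1348 and 1011, against 1087 and 1074).

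The effectors with the lowest adjusted p were Mx1 and Oas1a. Mx1, a dynamin-like GTPase that traps viral nucleocapsids, had 182, 255 and 84.0 in knockout olive oil/acetone libraries, against 14.1 and 14.6 in knockout water libraries (log2 difference 3.37 ± 0.58, limma adjusted p = 0.0134). Oas1a, which makes the 2-5A messenger that activates RNase L, had 289.7, 290.1 and 112, against 29.1 and 18.2 (3.14 ± 0.57, limma adjusted p = 0.0151). Its promoter carries the pair of overlapping matches printed above. Replicate 3 was well below the other knockout olive oil/acetone libraries in both genes, and still above both water libraries. Oas2, of the same enzyme family, had 114, 165 and 61.3, against 15.0 and 10.9 (2.94 ± 0.67, limma adjusted p = 0.0259). Xaf1, a pro-apoptotic partner of XIAP, had 206, 182 and 127, against 33.5 and 23.1 (2.55 ± 0.52, limma adjusted p = 0.0194). Ifi27l2a had 868, 813 and 583, against 144 and 112 (2.54 ± 0.54, limma adjusted p = 0.0219). These 3 effectors showed no overlap between the groups.

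Some smaller steps passed too. Dtx3l, a ubiquitin ligase that works with PARP9, had 358, 378 and 347 in knockout olive oil/acetone libraries, against 216 and 212 in knockout water libraries (0.75 ± 0.18, limma adjusted p = 0.0283). Its exons share 458 bases with those of Parp9 on the opposite strand (8% of Dtx3l exon bases), and reads of the pair cannot be told apart there because the strand setting is not known. Oasl2 had 492, 446 and 242, against 148 and 124 (1.46 ± 0.37, limma adjusted p = 0.0332). The other called effectors were Ifi44, Oasl1, Rtp4 (a receptor chaperone) and Mx2, with log2 differences of 3.07, 3.08, 2.78 and 1.82 and adjusted p from 0.0352 to 0.0438. Ifi44 and Oasl1 had 4 and 14 reads in all in the knockout water libraries, so their fold changes depend on the pseudocount. Just past the threshold lay Gbp3, Oas3, Ifit1 and Rsad2, with adjusted p from 0.0506 to 0.0565. Of the effectors only Isg20, an RNA exonuclease, had a negative difference (88.0, 88.0 and 64.2, against 131 and 134; limma adjusted p = 0.0759).

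**Figure D3:**
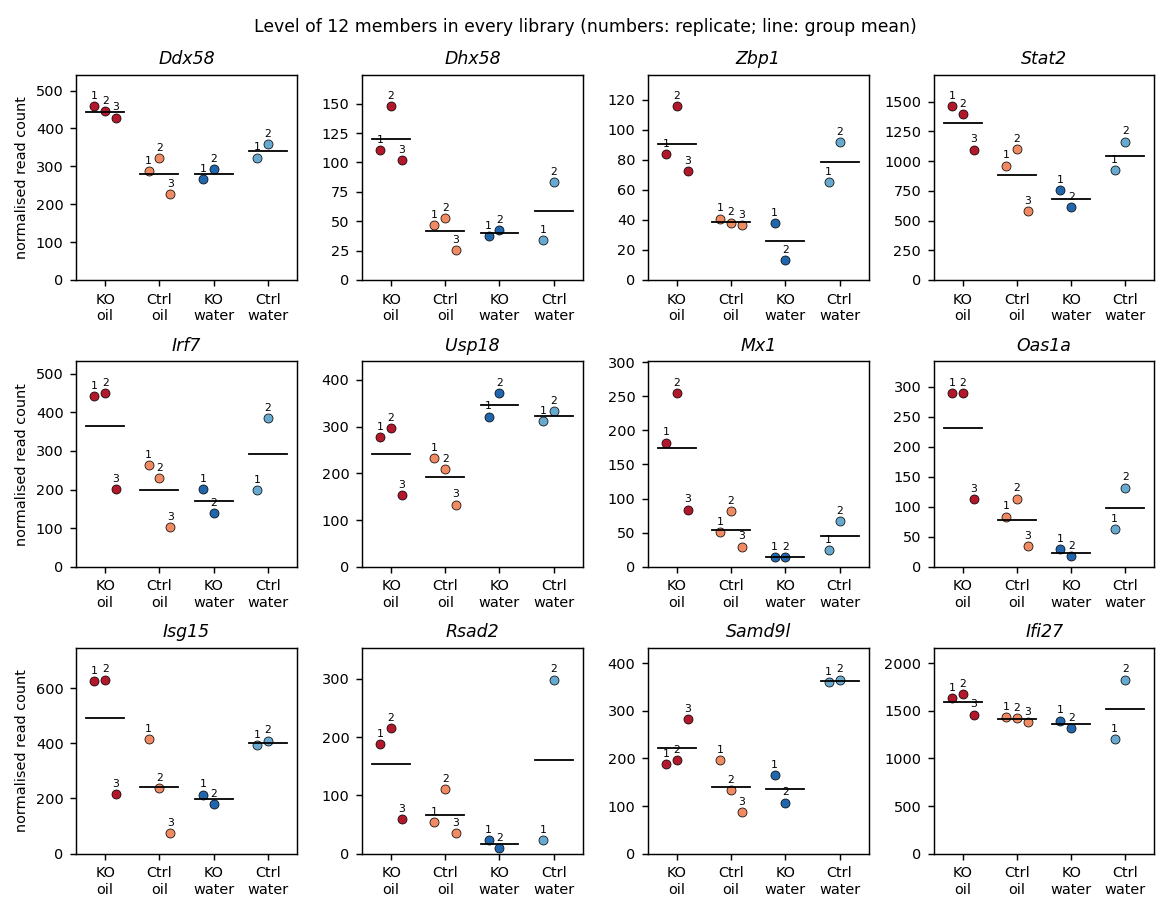
Normalised read count of 12 members in every library, on linear axes from 0, with groups ordered as knockout and control under olive oil/acetone (oil) and knockout and control under water. Points are libraries with their replicate number and lines are group means. Mx1 and Oas1a are high in knockout olive oil/acetone replicates 1 and 2, and Rsad2 has its highest value, 299, in control water replicate 2.

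The count of calls depended on single libraries. It was 0 without either knockout water library. It was 7 with replicate 1 of the knockout olive oil/acetone group left out, 2 without its replicate 2, and 3 without its replicate 3. Leaving out replicate 2 of the treated controls, which enters the shared variance, gave 7. Shares of all genes called in these fits are not given here, so the drops are not shown to be particular to the members. The median difference stayed between 0.90 and 1.54 in these fits. Mx1 and Oas1a were called in 8 of 10 fits that each left out 1 library, and Ddx58, Dhx58, Mx2, Oasl1, Rtp4 and Stat2 in 4 of 10. The edgeR test called 14 of the 38 higher (6.12% of all genes) and DESeq2 called 23 higher (11.8%) and Isg20 lower. Markers of some other cells moved with these genes, and those of others did not. Of 6 fibroblast genes 5 had negative differences (median -0.59), and of 8 epidermal T cell genes 5 had positive ones (median 0.06). The summed level of 5 red blood cell genes was 14407 to 27549 in knockout olive oil/acetone libraries and 1176 to 2544 in knockout water libraries. That of 8 hair shaft and inner root sheath genes was 501 to 2519 against 324 to 364, with 7 positive differences, 1 negative and a median of 2.56. That of the 2 neutrophil genes listed was 37.3 to 168 against 7.94 to 21.9. That of 7 macrophage genes was 603 to 1126 against 369 to 395, of 6 endothelial genes 321 to 478 against 71.4 to 196, and of 8 Langerhans and dendritic cell genes 23033 to 40098 against 17898 to 19114. In that last list 6 genes had positive and 2 negative differences: Cd74 and Mfge8 averaged 9900.3 and 8219 against 6601 and 2263, while Cd207, the langerin of Langerhans cells, averaged 1183 against 1373 and Cd86 217 against 367. The part of these lists in the difference was not tested. Of 6 plasmacytoid dendritic cell markers, Siglech and Cox6a2 were listed in no library, and the other 4 summed to 1183 to 1274 against 1274 to 1334.

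In control mice no member passed the test for the same treatment. The limma count was 0 of 38 (0.0627% of all genes), 4 had an unadjusted p under 0.05, all lower (7.94% of all genes), and 28 of 38 differences were negative with a median of -0.31, against 0.00 for all genes. Samd9l had 197, 133 and 87.9 in control olive oil/acetone libraries, against 359 and 365 in control water libraries (log2 difference -1.45 ± 0.34, limma adjusted p = 0.172). The edgeR test called 0 members and DESeq2 called 1, Samd9l, lower (1.41% of all genes). Zbp1 had 40.8, 38.2 and 36.2, against 65.4 and 91.8, and Usp18 had 233, 209 and 133, against 311 and 333. Parp14, a mono-ADP-ribosyltransferase, had 443, 455 and 329.5, against 511 and 606. In each of these 3 the olive oil/acetone libraries lay below both water libraries, as they did in 6 members in all (12% of all genes), the others being Samd9l, Ddx58 and Isg20. Eif2ak2 (PKR, a kinase that stops translation on double-stranded RNA) was the member with olive oil/acetone libraries all above, at 293, 382 and 252, against 228 and 222 (log2 difference 0.43 ± 0.23).

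The other sensors and regulators overlapped in controls. Dhx58 had 46.8, 52.6 and 25.3 under olive oil/acetone, against 33.6 and 83.4 under water, and Ifih1 had 326, 471 and 285, against 267 and 354. Stat2 had 962, 1102 and 580.0, against 926 and 1165, Irf9 686, 976 and 625, against 582 and 879.7, and Irf7 263, 229 and 103, against 198 and 385. The median of the members turned on single libraries: without control water replicate 2 it was 0.22, with 23 of 38 positive, without control water replicate 1 it was -0.67, and with replicate 3 of the treated controls left out it was -0.04. Limma called Samd9l lower when replicate 1 of the treated controls was left out. Control water replicate 2 also stood apart in hair shaft and inner root sheath genes (summed level 11382, against 322 in replicate 1) and in Langerhans and dendritic cell genes (38158, against 13252). Some immune marker lists leaned lower in the treated controls than in the water controls. Median log2 differences were -0.38 for macrophage genes (5 of 7 negative) and -0.93 for Langerhans and dendritic cell genes (7 of 8 negative). Others were mixed: 2 plasmacytoid dendritic cell genes were positive and 2 negative, and of 2 neutrophil genes 1 was positive and 1 negative. The 8 epidermal T cell genes summed to 3691 to 10612 against 10408 to 17082, with all 8 at an unadjusted p under 0.05 and a median log2 difference of -1.12, and the macrophage genes to 350 to 441 against 621 to 818. Of the 8 Langerhans and dendritic cell genes, 5 were lower at an unadjusted p under 0.05. Red blood cell genes summed to 4427 to 13396 against 3321 to 6497. The part of these lists was not tested.

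**Figure D4:**
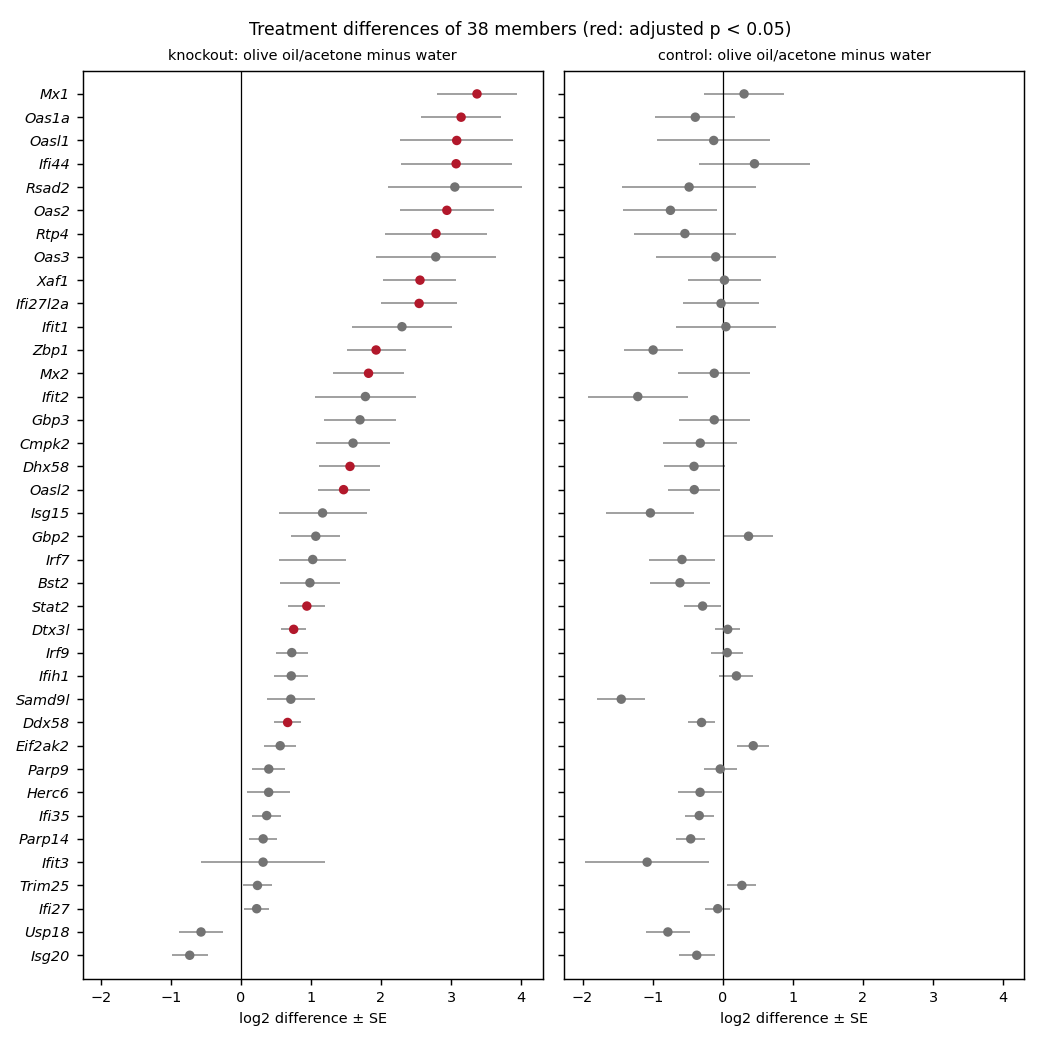
Log2 difference of olive oil/acetone minus water for each of 38 members, in knockout mice (left) and control mice (right), with SE bars from limma; red points have an adjusted p under 0.05. The 15 red points are all in the knockout panel, and 28 of the 38 points in the control panel lie below 0.

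Under olive oil/acetone, knockout was compared with control to ask how the genotypes differed in treated skin. This comparison shares the knockout olive oil/acetone libraries with the treatment comparison above. No member was called by limma (0 of 38, 0% of all genes; lowest adjusted p = 0.314) or by edgeR, and DESeq2 called Ddx58, Dhx58 and Mx2 higher (0.608% of all genes). Without adjustment 18 members had p under 0.05, all higher (5.47% of all genes). The median difference was 0.86, against 0.02 for all genes, and 37 of 38 were positive, Trim25 being the other at -0.05 and turning positive when libraries were scaled to equal totals. Libraries did not overlap, knockout above, in 17 members (8.55% of all genes), among them all 4 sensors and no regulator.

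Ddx58 had 459, 445 and 428 in knockout libraries, against 287, 321 and 227 in controls (444 ± 15.5 against 278 ± 47.4, SD, n = 3 each), a log2 difference of 0.69 ± 0.17. Dhx58 had 111, 148 and 102 in knockout libraries, against 46.8, 52.6 and 25.3, a log2 difference of 1.56 ± 0.39. Ifih1 differed by 0.72 ± 0.22, the highest control library (471) coming close to the lowest knockout library (489). For Zbp1 the knockout libraries stood at 72.7 to 116, above controls at 36.2 to 40.8, and the difference was 1.19 ± 0.38. Every knockout library thus lay above every control library in the 4 sensors, with limma adjusted p from 0.314 to 0.331.

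The effectors Mx2, Oas2, Mx1 and Ifi35 were separated as well, with limma adjusted p from 0.314 to 0.354. Mx2, the second mouse Mx GTPase, had 90.0, 103 and 50.01 in knockout libraries, against 28.9, 37.3 and 11.0 in controls (log2 difference 1.71 ± 0.46). Oas2 had 114, 165 and 61.3, against 22.9, 44.0 and 16.5 (1.995 ± 0.60), and Mx1 had 182, 255 and 84.0, against 50.8, 81.2 and 29.7 (1.64 ± 0.52). Ifi35, a leucine zipper protein, had 473, 535 and 372, against 359, 313 and 280.1 (0.53 ± 0.19). In Mx1 and Ifi35 the lowest knockout library and the highest control library nearly met. Of the regulators, Stat2, Irf9, Irf7 and Usp18 had positive differences of 0.62, 0.47, 0.89 and 0.32 and overlapped between genotypes. Oas1a overlapped too, its knockout replicate 3 (112) lying just below control replicate 2 (114). Without control olive oil/acetone replicate 3 the median of the members was 0.48, and 9 had an unadjusted p under 0.05; that count was 12 and 10 without knockout replicates 1 and 2. The 8 Langerhans and dendritic cell genes summed to 23033 to 40098 in knockout libraries and 10415 to 14344 in controls, and the macrophage genes to 603 to 1126 and 350 to 441. Endothelial genes summed to 321 to 478 in knockout libraries and 71.7 to 192 in controls, with 6 of 6 differences positive and a median of 1.62 on the log2 scale, and red blood cell genes to 14407 to 27549 and 4427 to 13396. Hair shaft genes were positive in 7 of 8 (median 3.07), with overlapping sums (501 to 2519 and 343 to 623), and epidermal T cell genes in 8 of 8 (0.37). Fibroblast genes were negative in 5 of 6 (-0.45) and keratinocyte genes in 6 of 8 (-0.13). The part of these lists was not tested.

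Under water, knockout was compared with control in the absence of the mixture. These water libraries are also the baseline of both treatment comparisons. No member was called by limma (0 of 38, 0% of all genes), edgeR or DESeq2 (0.0376% of all genes, lower). Of 38 differences 34 were negative, with a median of -0.67, against -0.01 for all genes. Without adjustment 10 had p under 0.05, all lower (3.22% of all genes), and both knockout libraries lay below both control libraries in 21 members (17.8% of all genes). Isg20 was the member with both above (131 and 134, against 88.4 and 118). Some marker lists of other cells lay lower as well. Red blood cell genes summed to 1176 to 2544 in knockout and 3321 to 6497 in control libraries, with 5 of 5 at an unadjusted p under 0.05. Macrophage genes summed to 369 to 395 and 621 to 818, and epidermal T cell genes to 7273 to 8057 and 10408 to 17082, with 8 of 8 differences negative. Hair shaft genes summed to 324 to 364 and 322 to 11382, and so overlapped. So did Langerhans and dendritic cell genes (17898 to 19114 and 13252 to 38158) and fibroblast genes (4540 to 7468 and 2984 to 10284). Endothelial genes overlapped too (71.4 to 196 and 160 to 242). Of 8 keratinocyte genes 6 had positive differences. The part of these lists was not tested.

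Samd9l had 165 and 107 in knockout water libraries, against 359 and 365 in control water libraries (log2 difference -1.44 ± 0.37). Zbp1 had 37.9 and 13.4, against 65.4 and 91.8 (-1.73 ± 0.46), and Oas1a had 29.1 and 18.2, against 63.4 and 132 (-1.94 ± 0.63). In these 3 the groups were well apart. Xaf1, Ifi27l2a and Oas2 did not overlap either, but the control libraries were far from each other: Xaf1 had 33.5 and 23.1, against 42.3 and 145, Ifi27l2a had 144 and 112, against 176 and 695, and Oas2 had 15.0 and 10.9, against 19.2 and 97.4. The same held for Oasl1 (11.5 and 1.22, against 13.5 and 79.6) and Ifit2 (16.8 and 10.9, against 19.2 and 171). All 8 had a limma adjusted p of 0.963. Without control water replicate 2 the median of the members was -0.38 and 27 of 38 differences were negative, and without control water replicate 1 it was -1.19. The count at an unadjusted p under 0.05 was 2 without control water replicate 2, 2 without knockout water replicate 2 and 17 without control water replicate 1.

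The remaining sensors and the regulators had log2 differences from -0.72 to 0.20 under water. Ddx58 had 266 and 293 in knockout libraries, against 323 and 359, and Stat2 had 757 and 614, against 926 and 1165, both without overlap. Dhx58 (37.0 and 42.6, against 33.6 and 83.4), Ifih1 (348 and 360.1, against 267 and 354), Irf9 (654 and 599, against 582 and 879.7), Irf7 (201.1 and 139.9, against 198 and 385) and Usp18 (321 and 372, against 311 and 333) overlapped.

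**Figure D5:**
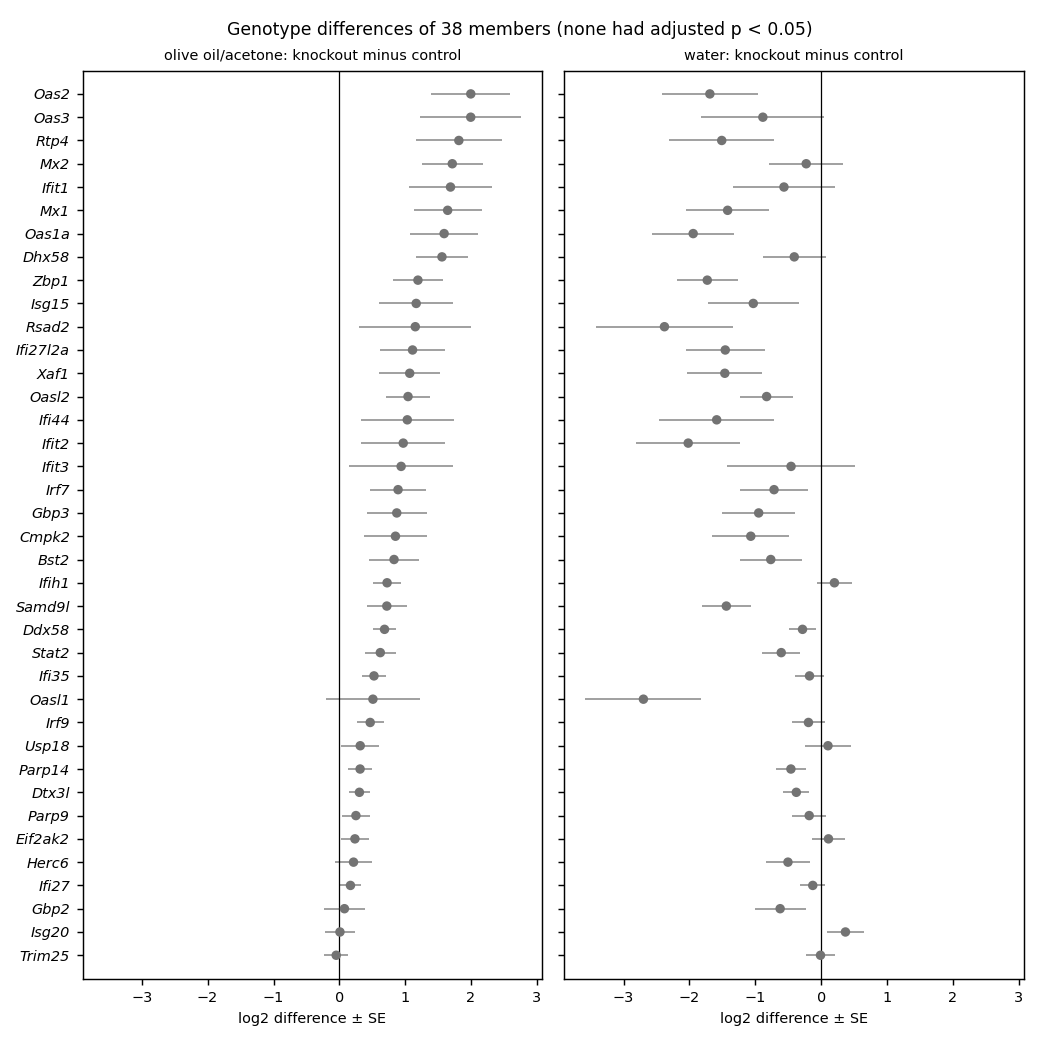
Log2 difference of knockout minus control for each of 38 members, under olive oil/acetone (left) and under water (right), with SE bars from limma. No adjusted p was under 0.05; 37 of 38 points lie above 0 on the left and 34 of 38 lie below 0 on the right.

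Whether the treatment difference itself differed between the genotypes was tested with the interaction term. No member was called by limma (0 of 38, 0% of all genes, lowest adjusted p = 0.356) or edgeR. Without adjustment 27 had a limma p under 0.05, all with a positive term (6.15% of all genes). A positive term means a higher treatment difference in the knockout than in controls, not a higher level. The median was 1.85, against 0.03 for all genes, and 36 of 38 were positive. Several marker lists had positive terms too. The unadjusted limma p was under 0.05 in 6 of 6 endothelial genes (median 2.67) and 5 of 5 red blood cell genes (2.46). It was also under 0.05 in 6 of 7 macrophage genes (2.05) and 6 of 8 Langerhans and dendritic cell genes (1.504). Hair shaft genes were positive in 7 of 8 (6.01) and epidermal T cell genes in 8 of 8 (1.04). Keratinocyte genes went the other way in 7 of 8 (-0.40) and fibroblast genes in 4 of 6 (-0.69). The part of these lists was not tested. DESeq2 called 10 members (0.978% of all genes), namely Mx1, Zbp1, Oasl2, Oas2, Rtp4, Xaf1, Ifit2, Samd9l, Oas1a and Ifi27l2a. The lowest limma p-values belonged to Zbp1 (2.92 ± 0.60), Samd9l (2.16 ± 0.48), Oas1a (3.53 ± 0.81) and Oas2 (3.69 ± 0.95), all with an adjusted p of 0.356. Without control water replicate 1 the median was 2.15, and without control water replicate 2 it was 1.37. The count at an unadjusted p under 0.05 was 13 without that library and 13 without knockout water replicate 2. Usp18, Eif2ak2, Trim25 and Isg20 had the interaction terms nearest 0 or below it (0.21, 0.13, -0.04 and -0.36).

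Other genes of the pathway were counted by role. Of 10 interferon genes, Ifng was listed in all libraries (21.7 to 102 in knockout and 18.7 to 37.8 in control olive oil/acetone libraries, 30.9 to 37.7 in knockout and 41.2 to 85.5 in control water libraries). Ifnk, the keratinocyte interferon, was listed under water only, at 3.53 and 4.87 in knockout and 4.81 and 11.2 in control libraries, and the other 8 were listed in no library. Water libraries listed 17916 (control) and 17983 (knockout) genes, and olive oil/acetone libraries 16014 (control) and 16557 (knockout). For a gene this low, being listed under water only is therefore not a shown difference in expression. In knockout mice under olive oil/acetone against water, 0 of 6 interferon receptor genes were called, with a median difference of 0.05.

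Of 11 tested genes of the induction pathway, which turns sensed nucleic acid into interferon transcription, 1 rose and 0 fell, a share near that of all genes (6.74% higher). The median difference of the list was -0.17, and 6 of 11 were negative. Tlr3, the endosomal receptor of double-stranded RNA, had 116, 147 and 149 in knockout olive oil/acetone libraries, against 60.0 and 56.0 in knockout water libraries (1.22 ± 0.34, limma adjusted p = 0.0429). Of 19 gamma interferon and antigen presentation targets 2 rose, Gbp7 (1.263 ± 0.30, limma adjusted p = 0.0276) and the immunoproteasome subunit Psmb10 (0.81 ± 0.22, limma adjusted p = 0.0396), and Nlrc5, the activator of class I genes, fell by 0.96 ± 0.17 (limma adjusted p = 0.0145). These counts are also near the background of 6.74% higher and 13.4% in either direction. Their median difference was 0.33, against 1.12 for the interferon-stimulated genes. In the other comparisons, control treatment, both genotype comparisons and the interaction, limma called 0 genes of these 4 lists. Signs in the gamma interferon and antigen presentation list still leaned as those of the members did. Of its 19 genes, 18 were positive in the interaction (median 0.86), 8 of them at an unadjusted limma p under 0.05. For genotype, 16 were positive under olive oil/acetone (median 0.36) and 18 negative under water (-0.47). For treatment in controls 17 were negative (-0.25). The receptor and induction lists were mixed in sign.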

How the data were processed

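Keratinocytes from trypsinised back skin epidermis gave 10 RNA-seq libraries. The deposited signal values are normalised read counts per gene; the tools named, per the submitters' processing notes, are DESeq2 1.26.0, Trimmomatic 0.38 and featureCounts 2.0.0, and the build is GRCm38 (mm10). Not given in the sources used here are the aligner, the strand setting and the annotation release. In every library 100% of values were whole multiples of 1 step within 0.1 read, so reads were recovered (15914663 to 21812292 per library).

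Values were brought to 1 scale with median-ratio factors (0.995 to 1.004). Of 15987 genes listed in all libraries, 15958 reached 10 in 2 libraries or more. Limma 3.58.1 in R 4.3.3 was fitted to their log2(value + 1), with a mean-variance trend, 1 fit of all 4 groups and Benjamini-Hochberg adjustment over all genes at 0.05. Fold changes are on that scale and understate changes of low genes. EdgeR 4.0.16 and DESeq2 1.42.0 on recovered reads were alternatives. Scripts were tested on simulated data. "Not overlapping" means that every library of 1 group lies above every library of the other.

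The members and lists were chosen with earlier results of these data known. Named genes are, per comparison, the members called by limma, of which at most the 8 with the lowest adjusted p get values by library, or, where none was called, up to 8 with the lowest unadjusted p among those not overlapping (4 for the interaction). Sensors and the regulators Irf7, Irf9, Stat2 and Usp18 are given throughout, and up to 3 genes per pathway list. Trim25, Isg20, Rsad2, Eif2ak2 and other members named beyond this were chosen after their values were seen. Overlapping genes can share reads. The list of receptor signalling genes is not reported here.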

Additional observations from a re-analysis of the deposited data

Results flagged for a closer look

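In 4 members every knockout library under olive oil/acetone lay above both knockout water libraries, while every control library under olive oil/acetone lay below both control water libraries. Over all genes tested, 1.54% (246 of 15958) met the same criterion. The difference between the treatment effects, from the limma interaction term on the log2 scale, was 0.969 for Ddx58, 2.92 for Zbp1, 2.16 for Samd9l and 0.775 for Parp14. None passed the adjusted threshold.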

How the results depend on the processing

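For olive oil/acetone against water in knockout mice, 15 members were called. The count was 25 with genes listed only in the groups compared, 25 with only those groups fitted, 26 with the replicate block, 24 with DESeq2, and 0 to 22 when 1 library was left out. Shares of all genes called under these settings are not given here, so the changes in count are not shown to be particular to the members. The cause was not tested. DESeq2 called 3 members for knockout against control under olive oil/acetone, 1 for olive oil/acetone against water in controls (0 to 1 by limma with 1 library left out) and 10 for the interaction (0 to 2). Correlations of same-numbered libraries were -0.10 to 0.45, and those of differently numbered libraries were -0.45 to 0.35. The labels tie the replicate number to nothing shared, and these correlations cannot decide whether it pairs the libraries. With the block, the median for treatment in controls was -0.00 on the log2 scale, with 18 of 38 positive against 10 without it, and 20 members against 10 had an unadjusted p under 0.05 for genotype under water. With equal totals Trim25 turned positive for knockout against control under olive oil/acetone. Leaving out 1 library made the log2 difference cross 0 in 23 of 38 members for treatment in controls, 12 for genotype under water, 4 for genotype under olive oil/acetone, 4 for the interaction and 1 (Ifit3) for treatment in knockout mice. Among the sensors and regulators, for knockout against control under water, they ranged over -1.06 to 0.231 for Dhx58, -0.00768 to 0.401 for Ifih1, -0.497 to 0.101 for Irf9 and -0.00286 to 0.21 for Usp18. For treatment in controls they ranged over -1.06 to 0.234 for Dhx58, -0.0143 to 0.4 for Ifih1 and -0.236 to 0.363 for Irf9, and for the interaction of Usp18 over -0.0287 to 0.513. With 2 water libraries per genotype, 1 library can decide a call, and members with few reads under water have uncertain fold changes.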
